A study of Homo sapiens with 2 samples.

Results

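The probes described here lie inside genes, from the annotated start to 3000 bp downstream, on a set of 2 promoter arrays that were hybridized with chromatin immunoprecipitation DNA from Meg-01 cells. A genomic probe belonged to them when the array annotation placed it inside a gene, at 0 to 3000 bp from the start of the first gene listed for it. The rule used annotation and no measured value. It took 181356 of the 474411 genomic probes (38.2%), 90202 on the array called chIP1 and 91154 on chIP2. After spots of poor quality were removed, 181210 probes were kept. They fell in 16557 genes, of which 15911 had at least 1 window of 3 adjacent probes inside the gene. A gene here is a symbol on 1 array, and the windows of all its annotated starts are pooled. Another 24 probes whose first annotation entry was a miRNA were left out.

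Meg-01 is an established human megakaryoblastic leukemia cell line, and the cells were untreated. Sonicated chromatin was pulled down either with the antibody GATA1 (C-20), called the IP here, or with normal goat IgG as the background. The IP DNA carried Cy5, the IgG DNA carried Cy3, and both were hybridized to the same array. The arrays chIP1 and chIP2 hold different probes, so each probe has 1 measurement, and neither replicates nor swapped dyes exist among the arrays used. Therefore no test was possible, and every number below describes these arrays only.

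The protein GATA1 carries zinc fingers that recognize GATA sequences in DNA. It is required for the formation of red cells and of megakaryocytes, the cells that release platelets, and it works there with partners such as FOG1, TAL1 and LDB1. In blood cells it is known to bind enhancers and first introns as well as promoters. The first bases of a gene body, just downstream of the start, belong to the open chromatin around the start, and many human starts lie in CpG islands, which are stretches rich in the dinucleotide CG. The array annotation says that a probe is inside a gene but not whether it lies in an exon or an intron.

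The scale of all values is log2(IP/IgG), and the median probe of either array lies at 0, so that 1 is 2-fold toward the IP and -1 is 2-fold toward the IgG. The value of a window is the mean of its 3 probes. Windows at or above 1 are called IP-side windows, and windows at or below -1 are called IgG-side windows and serve as the background of the same arrays. The probes had median raw signals of 582 for the IP and 441 for the IgG, over local backgrounds with medians of 336 and 270.5 on chIP1 and of 334 and 269 on chIP2. The scanner software called 99.8% of the probes well above background for the IP and 99.6% for the IgG. The 480 spots of a control probe spread with an SD of 0.05 (chIP1) and 0.04 (chIP2), an error of spotting and scanning alone, while single probes inside genes had an SD of 0.91.

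Because the values changed with the CpG content of the promoter and because GATA1 binds GATA sequences, 4 promoters are shown, each as the 250 bases before the RefSeq start on build GRCh38.p14. The first pair gives an example of a CpG-rich and of a CpG-poor promoter, with each CG in capitals. Both genes had an IP-side window in the first 500 bp. RPS29, a protein of the small ribosomal subunit (chr14:49598711-49598960, minus strand), held 31 CG in these bases, and GATA1 itself (chrX:48786340-48786589, plus strand) held 4.
RPS29: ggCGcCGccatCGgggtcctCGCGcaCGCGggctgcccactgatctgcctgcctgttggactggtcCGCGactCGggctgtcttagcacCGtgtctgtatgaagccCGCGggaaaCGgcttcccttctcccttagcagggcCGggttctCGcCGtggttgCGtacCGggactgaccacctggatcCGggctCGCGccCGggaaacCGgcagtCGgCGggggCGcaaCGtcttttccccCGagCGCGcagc
GATA1: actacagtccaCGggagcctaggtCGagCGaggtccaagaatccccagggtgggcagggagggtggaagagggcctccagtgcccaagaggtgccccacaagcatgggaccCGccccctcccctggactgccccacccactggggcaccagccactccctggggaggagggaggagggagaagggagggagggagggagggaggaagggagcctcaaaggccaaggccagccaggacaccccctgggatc
The second pair shows genes of red cells with GATA motifs before their start, with each GATA motif in capitals (AGATAA or AGATAG as well as TGATAA or TGATAG, on either strand). They are KLF1, a transcription factor of red cells (chr19:12887202-12887451, minus strand), and KEL, the Kell blood group protein (chr7:142962364-142962613, minus strand). Each held 2 motifs. The motif letters are a description and not a measured binding site. Both of these genes had IP-side windows. TTBK2 also held 2 motifs in the 250 bases before its start, and it had 6 IgG-side windows and no IP-side window.
KLF1: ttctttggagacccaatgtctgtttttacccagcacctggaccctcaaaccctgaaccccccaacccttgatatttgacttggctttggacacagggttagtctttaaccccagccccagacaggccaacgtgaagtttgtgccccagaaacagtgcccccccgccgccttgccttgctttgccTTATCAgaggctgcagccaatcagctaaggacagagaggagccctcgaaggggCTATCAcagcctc
KEL: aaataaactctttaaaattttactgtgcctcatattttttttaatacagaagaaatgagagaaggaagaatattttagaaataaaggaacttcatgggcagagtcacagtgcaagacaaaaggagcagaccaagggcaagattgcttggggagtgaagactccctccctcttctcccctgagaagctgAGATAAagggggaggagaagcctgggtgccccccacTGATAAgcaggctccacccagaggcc

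Over all the probes inside genes near the start, the balance of the IP and the IgG side depended on the background correction. Among 145232 windows there were 10981 IP-side (7.56%) and 11081 IgG-side windows (7.63%), an IP share of 49.8% among the windows past 2-fold. With normexp, which models the local background, there were 4936 IP-side and 2850 IgG-side windows (63.4%), and with loess on intensity the share was 55.1%. Over all 415403 windows of both arrays the percentages were 7.62% for the IP and 9.65% for the IgG, an IP share of 44.1%. These windows include those near the start and, unlike them, could cross from 1 gene to the next. On chIP1 the windows near the start gave 8.09% for the IP and 7.73% for the IgG, beside 7.98% and 9.71% over the whole array. On chIP2 they gave 7.03% and 7.53%, beside 7.26% and 9.59%. The IP shares were thus 51.2% on chIP1 and 48.3% on chIP2. The number of IP-side windows was thus close to that of the whole arrays, and the IgG-side windows were fewer. The median probe was 0.07, with the middle 50% of probes between -0.49 and 0.54.

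The balance changed along the gene. In the first 500 bp the median probe was 0.26, with 9.14% IP-side against 3.97% IgG-side windows. From 500 to 1000 bp the median was 0.11, with 7.99% and 5.62%. From 1000 to 1500 bp the sides crossed, with a median of -0.02 and shares of 7.26% and 7.98%. With normexp (56.9%) and with loess (53.5%) the IP side still held the larger part of this step, and the sides crossed from 1500 to 2000 bp. From 2000 to 2500 bp the median was -0.13, with 6.49% IP-side and 11.5% IgG-side windows. Which side changed more depended on the correction. With normexp the IP side fell from 6.09% in the first 500 bp to 1.97% from 2000 to 2500 bp, and the IgG side rose from 1.16% to 2.86%. The IP share of the windows past 2-fold went from 69.7% in the first 500 bp over 58.7%, 47.6%, 39.8% and 36.1% to 38.4% in the last 500 bp. In the first 500 bp the median probe was 0.29 on chIP1 and 0.23 on chIP2, and from 2500 to 3000 bp it was -0.15 and -0.11, so both arrays ran the same way.

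**Figure D1:**
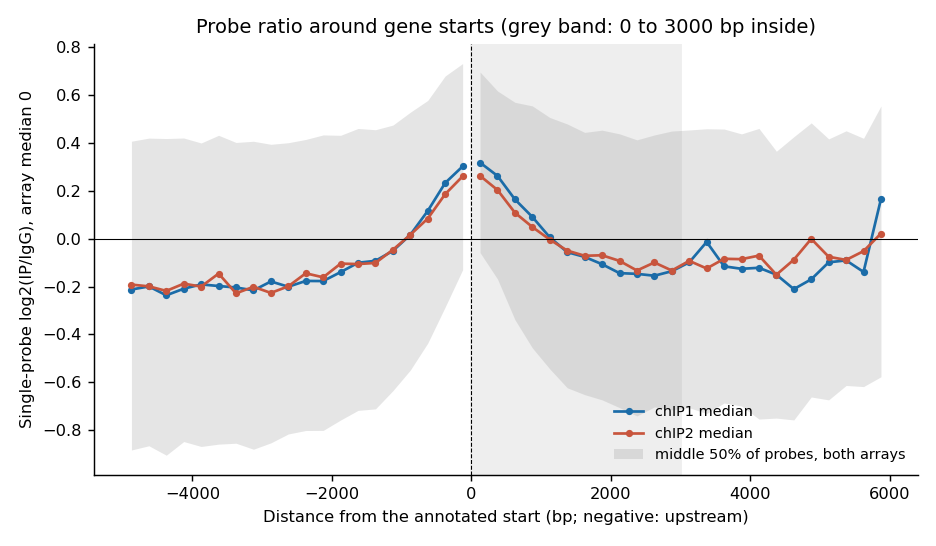
Median single-probe log2(IP/IgG) in steps of 250 bp against the distance from the annotated start, for chIP1 (blue) and chIP2 (red); the pale ribbon holds the middle 50% of the probes of both arrays, and the grey band marks 0 to 3000 bp inside the gene. Both arrays were highest at the start and fell below 0 on either side of it, and the wide ribbon shows that the shift of the median was small beside the spread of single probes.

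The start itself was no break in the values. In the 250 bp just upstream the median probe was 0.28, and single-gene promoter probes within 1000 bp upstream had a median of 0.18 and an IP share of 61.9%. At the far limit of the rule, the 3246 probes of the last 250 bp inside it had a median of -0.13, and the 2387 probes of the next 250 bp outside it had -0.09. Promoter probes farther than 2000 bp upstream had a median of -0.19 and an IP share of 30.4%, and gene body probes more than 10 kb from the start had -0.11 and 35.4%. The last 500 bp near the start thus resembled the distant gene body more than the first 500 bp.

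Signal intensity moved with distance, and the pattern was therefore also counted within 4 equal groups of window intensity. The median log2 intensity of the probes fell from 10.33 in the first 500 bp to 9.62 from 2000 to 2500 bp. The dimmest group had 11.8% IP-side and 16.4% IgG-side windows. In the brightest group the percentages were 5.03% and 1.47%, and the IP share was 77.3%. The first 500 bp had a higher IP share than the step from 2000 to 2500 bp in all 4 groups. In the dimmest group it was 51.5% against 35.2%. In the brightest group it was 96.0% against 53.6%, from 822 IP-side and 34 IgG-side windows in the first 500 bp and from 105 and 91 windows farther in. By IP share the distance pattern was thus present within all 4 groups and was wider in the brightest than in the dimmest. By the median window it was not wider there. In the brightest group this median was 0.33 in the first 500 bp and 0.03 from 2000 to 2500 bp. In the dimmest it was 0.12 and -0.24. The groups match brightness only roughly, as the median intensity of the brightest still fell from 11.37 to 11.12. The part of brightness was not tested.

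**Figure D2:**
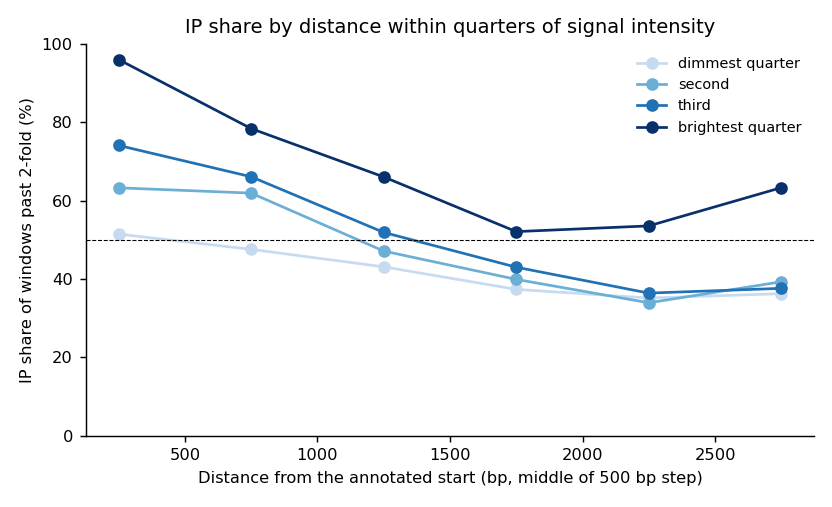
Share of the windows past 2-fold that lay on the IP side (%, vertical axis) against the distance of the center probe from the start (bp, horizontal axis), for the 4 equal groups of window intensity inside genes near the start. The brightest group began at 96.0% and the dimmest at 51.5%, and every group was lower from 2000 to 2500 bp than in the first 500 bp.

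The CpG content of the promoter went with the balance just inside the gene. A RefSeq sequence from 250 bases before to 50 bases after the start was found for 12349 of the 15911 genes (77.6%), and these were split at 16 and 29 CG into CpG-poor, intermediate and CpG-rich promoters. As this share is too low to stand for all genes, the split is void as a check over all of them and describes these genes only. In the first 500 bp, a CpG-poor promoter went with 621 IP-side and 593 IgG-side windows, an IP share of 51.2%. Genes with an intermediate promoter had 710 and 123 windows (85.2%), and genes with a CpG-rich promoter had 537 and 108 (83.3%). The IP side took similar shares of the windows in the 3 classes, 9.12%, 10.02% and 8.36%, and the IgG side took unequal ones, 8.71%, 1.74% and 1.68%. With normexp the IP side was unequal too, at 4.64%, 9.06% and 5.05%, and the IgG side was at 2.63%, 0.37% and 0.55%. From 2000 to 2500 bp the IP shares were close, at 36.6%, 35.6% and 34.1%. Genes without a promoter sequence had an IP share of 70.8% in the first 500 bp and of 38.2% from 2000 to 2500 bp.

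**Figure D3:**
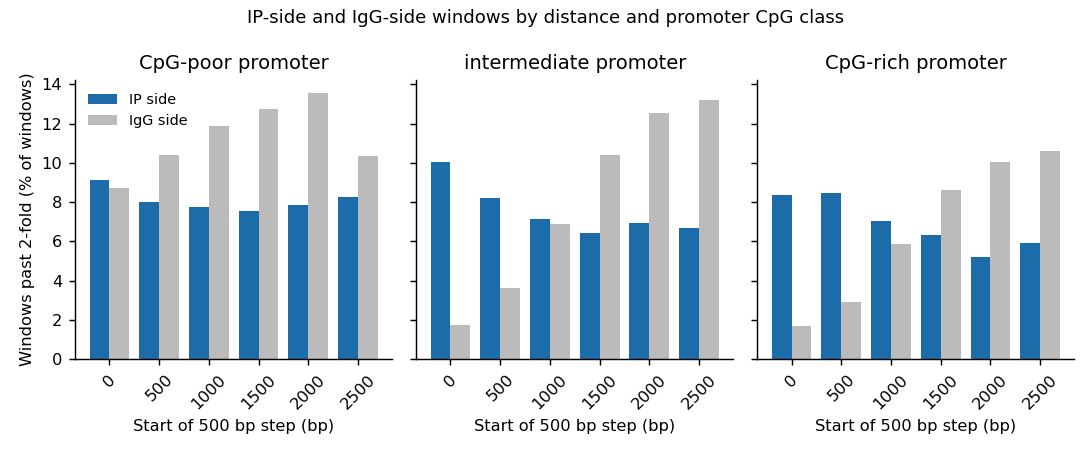
Windows on the IP side (blue) and the IgG side (grey), as a percentage of all windows in each step of 500 bp from the start, for genes with a CpG-poor, an intermediate and a CpG-rich promoter. The blue bars of the first step are at 9.12%, 10.02% and 8.36%, while the grey bars of the first step are at 8.71%, 1.74% and 1.68%.

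CpG-poor genes were also dimmer in the first 500 bp, with a median window intensity of 9.93 against 10.76 and 10.24. Within the dimmest group the IP shares of the first 500 bp were 43.2%, 59.6% and 67.4% for CpG-poor, intermediate and CpG-rich promoters, and within the brightest group they were 87.2%, 98.7% and 98.8%. The order CpG-poor below the other classes was therefore found within both of these groups, which match brightness only roughly. Counted by gene, the classes were close on the IP side. An IP-side window was found in 29.4% of the CpG-poor, 29.2% of the intermediate and 29.7% of the CpG-rich genes. An IgG-side window was found in 33.7%, 23.6% and 22.6% of them.

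Genes with and without GATA motifs in the promoter were close on the IP side of the gene body. The motifs named above were searched on both strands of the 300 bases around the start, where 25.5% of all 27305 RefSeq promoters held at least 1. Of 2306 genes with a motif, 28.8% had an IP-side window near the start, against 29.6% of 10043 genes without, and 33.8% against 25.1% had an IgG-side window. The motif was more frequent in CpG-poor promoters (36.1%) than in CpG-rich promoters (4.93%). Within the CpG-poor class, 27.9% of 1501 genes with a motif and 30.2% of 2657 genes without had an IP-side window. The motifs inside the gene bodies themselves were not searched, since the probe sequences were not used here.

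Neighboring probes inside a gene moved together, and less so with distance. Across 151635 pairs of probes of the same gene at most 250 bp apart, the correlation of the probe values was 0.58. It was 0.28 from 250 to 500 bp, 0.11 from 500 to 750 bp and 0.03 from 1000 to 1250 bp. These correlations are across probes of the same arrays and genes and are not over replicates. Adjacent IP-side windows formed 5167 runs, of which 40.2% were a single window, 664 held at least 4 windows and the longest held 12. The IgG side formed 4783 runs, of which 39.1% were a single window, 822 held at least 4 windows and the longest held 14. The runs differed in position, with a median center at 990.5 bp on the IP side and at 1524 bp on the IgG side.

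The gene body near the start followed its own promoter only loosely. Over 10899 genes with windows in both places, the mean of the gene body windows and the mean of the promoter windows within 1000 bp upstream had a Pearson correlation of 0.16 (Spearman 0.14). The correlation with the promoter was 0.19 for the first 1000 bp, 0.08 for the next 1000 bp and 0.05 for the last 1000 bp of the range. It is across genes on shared arrays, and genes are not replicates. Counted by gene, 632 genes had an IP-side window in both places, 1166 in the promoter alone, 2742 in the gene body alone and 6359 in neither. An IP-side window inside the gene was found in 35.2% of the genes with an IP-side promoter window and in 30.1% of the other genes.

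Of the 15911 genes with a window near the start, 4622 (29.0%) had an IP-side window, 4137 (26.0%) had an IgG-side window, and 1057 had both. Anywhere on the arrays, upstream windows included, 9359 of 17016 genes (55.0%) had an IP-side window. Near the start, at least 2 IP-side windows were found in 3003 genes (18.9%). The median gene had 9 windows, and its highest window was 0.68 and its lowest -0.58. The highest window exceeded 1.82 in the top 5% of the genes and the lowest window was under -1.81 in the bottom 5%. With normexp 2484 genes had an IP-side window.

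The highest windows were mostly those of dim probes. Among genes with at least 2 IP-side windows, the 10 highest included TBX22 (3.93), LRRTM3 (3.61), FAM5C (3.58), C1orf94 (3.54), FAM81A (3.54), ABLIM1 (3.53), NPR2 (3.501), Tenr (3.48) and FLJ21839 (3.37). TBX22 is a T-box transcription factor of palate development, LRRTM3 is a synaptic adhesion protein, and NPR2 is a receptor of natriuretic peptide. Their windows lay between the 2.35th and the 22.1st percentile of intensity. In the window of TBX22, on chromosome X, the raw signals averaged 477 for the IP and 306 for the IgG, not far above the local background of the array. TBX22 had 12 IP-side windows among 15. With normexp background correction the highest windows of TBX22 (0.79), C1orf94 (0.84) and FAM81A (0.69) were below 2-fold, and those of the other genes listed were past it. With both channels above background TBX22, C1orf94 and FAM81A were at 2.99, 2.33 and 2.50. LRRTM3, FAM5C, FAM81A and ABLIM1 had IgG-side windows as well, with 13 in ABLIM1. The highest window of ABLIM1 began at 116274457 and its lowest at 116432335 on chromosome 10, so they belong to different starts. Of the 100 genes with the highest windows, 75 had them in the dimmest group and 3 above the median intensity, and at the same probes 55 were still past 2-fold with normexp.

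Genes were called bright when they had at least 2 IP-side windows and a highest window at or above the median intensity of its array that was past 2-fold also with normexp and with loess at the same probes. Of 2996 genes with at least 2 IP-side windows outside the Y chromosome, 963 (32.1%) were bright. By the same conditions 347 genes were bright for the IgG, 12.6% of those with at least 2 IgG-side windows. These bright genes are all chosen by their values, so the counts are a description. The bright IP-side windows had a median center at 774 bp, and 314 of the 963 (32.6%) were in the first 500 bp. The bright IgG-side windows had a median center at 1457 bp, and 33 of the 347 (9.51%) were in the first 500 bp.

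The 10 highest of these bright IP-side genes were CRIM1 (3.05), MAZ (2.99), PTP4A2 (2.74), NCE2 (2.62), SSFA2 (2.62), KIF7 (2.57), DALRD3 (2.57), CPNE8 (2.54), ZADH2 (2.51) and CHURC1 (2.45). CRIM1 is a transmembrane protein that binds bone morphogenetic proteins, MAZ is a zinc finger transcription factor, PTP4A2 is a phosphatase, NCE2 (UBE2F in RefSeq) conjugates NEDD8, and KIF7 is a kinesin of hedgehog signaling. CRIM1 peaked at probes 1075, 1252 and 1376 bp from its start with 3.51, 3.53 and 2.11, and its probes from 1852 bp onward were all below 0. Its raw signals averaged 1221 in the IP and 371 in the IgG channel there. MAZ reached 4.06 and 3.70 at 1837 and 1967 bp and was at -0.07 at 2082 bp. SSFA2 and ZADH2 each had 2 IgG-side windows as well. The 5 lowest bright windows on the IgG side included those of TRG20 (-2.54, MED10 in RefSeq), TTBK2 (-2.53), TRIM55 (-2.43) and CCL18 (-2.36). CCL18 also had 3 IP-side windows, with a highest of 2.76 that was 0.895 with normexp. TRG20 had 1 IP-side window, at 1.06, and TTBK2 and TRIM55 had none. TTBK2, a tau tubulin kinase, had 6 IgG-side windows among 10, with raw signals of 491 in the IP and 881 in the IgG channel at the lowest of them.

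GATA1 had 7 IP-side windows among 11, and none on the IgG side. Its highest window was 1.63, centered at 404 bp, where the raw signals averaged 1849 in the IP and 641 in the IgG channel, at the 96.0th percentile of intensity. The first 5 probes, at 55, 240, 404, 524 and 661 bp, were at 1.16, 1.19, 1.18, 2.52 and 0.91. A further stretch at 1442 and 1633 bp reached 2.29 and 1.21, and the last 2 probes were at -0.24 and -0.14. The promoter of GATA1 within 1000 bp upstream averaged 0.08, below the values just inside the gene. With normexp the highest window was 1.69, and with loess it was 1.49. GATA1 lies on the X chromosome, where windows near the start varied most.

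KEL had 7 IP-side windows among 15. Its first 4 probes were at 1.58, 1.33, 1.23 and 1.00. The probes at 1459, 1565 and 1779 bp were at 3.04, 2.80 and 2.05 and made up its highest window (2.63), whereas the last 4 probes, from 2226 bp, were between -1.46 and -0.93 and gave 1 IgG-side window. KLF1, with 2 GATA motifs in its promoter, had 3 IP-side windows among 11. Its probes at 627 and 841 bp were at 1.34 and 1.42, the next was at -0.46, and its highest window of 1.22 was centered at 1929 bp. GATA2, a factor of blood stem cells that GATA1 is known to repress, was between -0.51 and 0.30 up to 1258 bp and had its highest window, 1.49, centered at 2634 bp with probes between 1.15 and 2.06. BCL2L1, which encodes Bcl-xL, had no window past 2-fold among 15. Its probes ran from -0.99 to 0.26, its highest window was 0.00, above that of 10.2% of the genes of its array, and this window lay at the 98.1st percentile of intensity. Its promoter windows within 1000 bp upstream averaged -0.06, with a highest of 0.32. The region that the study amplified after pull-down lay mostly upstream of the start. The study also used reporter and knockdown experiments, so these windows are no check of its finding.

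**Figure D4:**
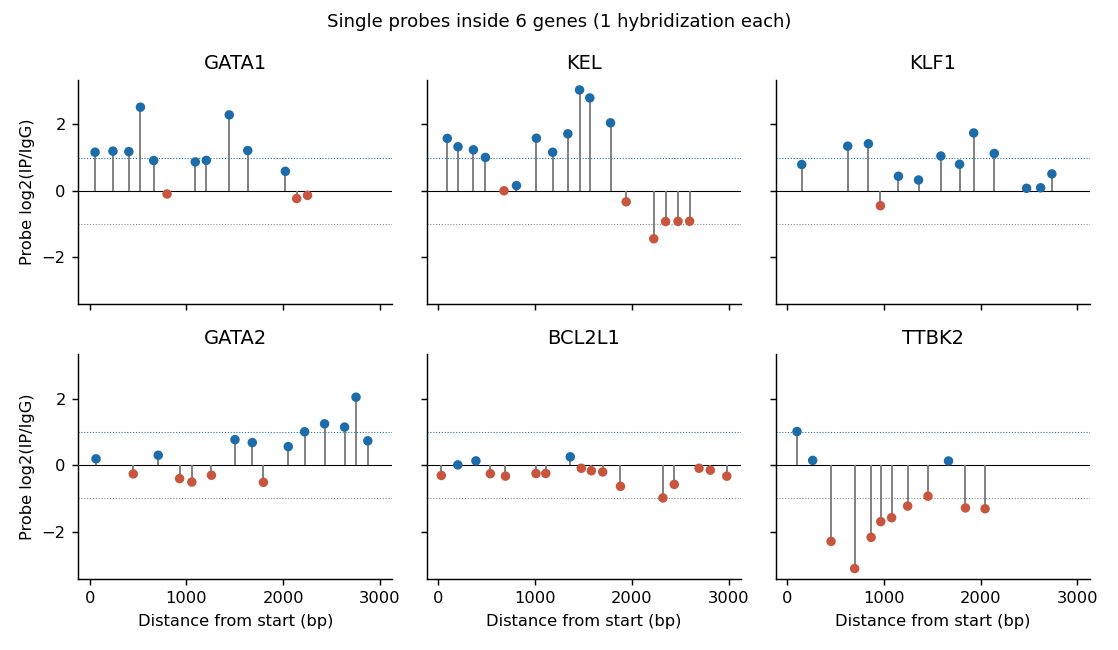
Single-probe log2(IP/IgG) (vertical axis) against the distance from the annotated start (bp, horizontal axis) inside GATA1, KEL, KLF1, GATA2, BCL2L1 and TTBK2; each point is a probe measured in 1 hybridization, blue at or above 0 and red below, and dotted lines mark 1 and -1. GATA1 and KEL rise in 2 separate stretches each, GATA2 rises at its far end, BCL2L1 stays between -0.99 and 0.26, and TTBK2 falls to -3.12.

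Known targets of GATA1 were described by a list of 30 genes of red cells and megakaryocytes, of which 25 had a window near the start. HBA1, HBG1 and PF4 had too few probes for a window, and GFI1B and GP1BB were not analysed here. An IP-side window was found in 10 of the 25 genes (40.0%), beside 29.0% of all genes, and an IgG-side window in 4 (16.0%), beside 26.0%. The median highest window was 0.90, beside 0.68 over all genes. Over 0 to 2000 bp alone the direction turned, with 0.59 beside 0.62. The listed genes also had more windows, with a median of 11 beside 9. Of the 248 windows of these genes, 26 were IP-side and 6 IgG-side windows. The genes were brighter than the rest, with a median log2 intensity of 10.58 against 10.03, and the part of brightness in these counts was not tested.

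Of the 25 targets, 10 were on the list of blood transcription factors, and 6 of these had an IP-side window. After GATA1 (1.63) and GATA2 (1.49) followed SLC4A1, the anion exchanger of the red cell membrane (1.46), KLF1 (1.22), GP1BA, the platelet receptor of von Willebrand factor (1.20), RUNX1 (1.19), ZFPM1, which encodes FOG1 (1.17), MYB (1.16), VWF (1.05) and TUBB1, the tubulin of platelets (1.01). The single probes of the highest window ran from 1.12 to 1.97 in SLC4A1 and from 1.07 to 1.22 in MYB, but from 0.45 to 2.12 in GP1BA. With normexp the highest window of VWF was 0.77, and with loess that of TUBB1 was 0.93, both below 2-fold. The other 15 members stayed below 2-fold, among them FLI1 (0.93), NFE2 (0.90), LYL1 (0.90), ITGA2B (0.65), EPOR (0.65) and TAL1 (0.47), named after their values were seen. At the low end were HBB (-0.02), PPBP (-0.29) and SELP (-0.50), which had IgG-side windows.

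Blood transcription factors, many of them partners or targets of GATA1, stood highest among the lists of function. Of 35 genes, 19 (54.3%) had an IP-side window and 6 (17.1%) an IgG-side window, and the median highest window was 1.10. They had a median of 13 windows per gene beside 9 over all genes, so that their counts by gene are not level with those of all genes. Per window the IP side took 10.7%, beside 7.56%. Their 3 highest were RUNX3 (1.79), ERG (1.69) and GFI1 (1.69), and LDB1, MAFK and MYCN had 1.22, 1.39 and 1.31. The window of GFI1 had probes of 0.47, 0.53 and 4.06, so that a single probe carried most of it. That of ERG was also uneven, with 0.53, 3.00 and 1.55. With normexp the highest windows of GFI1 and ERG were 1.14 and 1.40, and with 5 probes 1.16 and 1.05. LMO2 and TCF3, members of the same complexes as TAL1 and LDB1, had 0.14 and 0.24. Of these, LDB1, MAFK, LMO2 and TCF3 were named after their values were seen. This list shares 10 genes with the known target list, so that the lists are not independent. Genes of red cells (7 of 28 genes with an IP-side window, 25%) and of platelets and megakaryocytes (9 of 36, 25%) did not exceed the 29.0% of all genes. In the platelet list the windows leaned to the IgG side, with 22 for the IP and 44 for the IgG, of which CD36 alone gave 19. The highest of the platelet list were TBXAS1 (1.71), RGS18 (1.66, but 0.905 with normexp) and TPM1 (1.54), and those of the red cell list were KEL (2.63), UROS (1.86) and UROD (1.55), the latter pair being enzymes of heme synthesis.

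BCL2 family and caspase genes had an IP-side window in 8 of 37 genes (21.6%), beside 29.0% of all genes. An IgG-side window was found in 2 (5.41%), beside 26.0%. Of their 324 windows, 25 (7.72%) were IP-side and 2 (0.62%) IgG-side windows, beside 7.56% and 7.63% over all genes. The IP side was thus near that of all genes, and the IgG side was lower. CASP5 (2.05), BOK (2.00) and CASP10 (1.53) were highest. The window of CASP5 was dim, at the 9.49th percentile of intensity. With normexp the highest windows of CASP5 and CASP10 were 0.49 and 0.98, below 2-fold. The list also holds CYCS, which encodes cytochrome c and belongs to neither family. CYCS (1.32), BCL2L11 (1.25) and MCL1 (1.20) met the conditions for bright genes. Cell cycle genes had an IP-side window in 16 of 47 (34.0%) and an IgG-side window in 12 (25.5%), and CCNB3 (2.01), E2F2 (1.76) and CCND1 (1.69) were highest. The window of CCNB3 lay at the 3.42th percentile of intensity, and its highest window was -0.063 with normexp and 0.697 with both channels above background. Ribosomal protein genes, most of them active in growing cells, had an IP-side window in 17 of 60 (28.3%) and an IgG-side window in 5 (8.33%), and RPL19 (1.67), RPS29 (1.46) and RPL11 (1.34) were highest. Of the genes of unrelated tissues 8 of 21 (38.1%) had an IP-side window, a share like that of the known targets, with APOA2 (1.92), GFAP (1.88) and KRT5 (1.35) highest, but 11 (52.4%) had an IgG-side window. With normexp the highest windows of these 3 genes were 0.81, 0.54 and 0.63, all below 2-fold. Olfactory receptor genes, which are short and best known from the nose, had an IP-side window in 29 of 219 (13.2%) and an IgG-side window in 75 (34.2%), with OR13H1 (2.82), OR2D3 (2.36) and OR1N1 (2.30) highest. OR13H1 lay at the 2.43th percentile of intensity and was 0.51 with normexp, and OR2D3 and OR1N1 were 1.05 and 1.39. They had a median of 3 windows per gene, so their counts by gene are not level with those of longer genes.

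The share of bright IP-side genes, as defined above, also varied between the lists. It was 6.05% over all genes, 28.0% for the known targets (7 of 25), 25.7% for the blood transcription factors (9 of 35), 17.9% for the red cell genes (5 of 28) and 11.7% for the ribosomal protein genes (7 of 60). It was 8.11% for BCL2 family and caspase genes, 5.56% for platelet genes, 4.76% for the unrelated genes, 4.26% for cell cycle genes and 0.91% for olfactory receptors. The 7 known targets were GATA1, GATA2, SLC4A1, KLF1, GP1BA, RUNX1 and MYB. These shares rest on few genes and on a definition that uses brightness, and the lists differed in brightness.

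**Figure D5:**
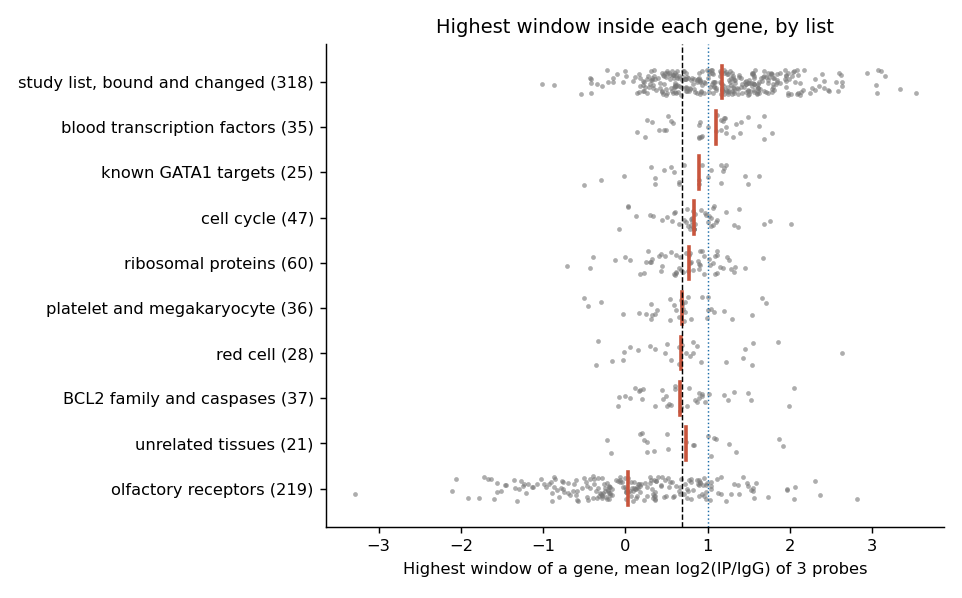
Highest window near the start of each gene (mean log2(IP/IgG) of 3 probes, horizontal axis) for 10 lists, with the number of genes in parentheses; grey points are genes, red bars are list medians, the dashed line is the median of all genes (0.68) and the dotted line is 2-fold. The study list was chosen by the study on these arrays, the blood transcription factors have a median of 1.10 and the known targets of 0.90 (0.59 from 0 to 2000 bp, below the 0.62 of all genes), and the olfactory receptors have 0.04.

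The study checked 5 genes by PCR, and these were chosen by the study on the same arrays. Inside the gene near the start, VEGF (VEGFA in RefSeq), a growth factor of blood vessels, had 5 IP-side windows among 16. Its highest window lay on chromosome 6 from 43847800 to 43848123, with the center 2059 bp from the start, probes of 2.41, 2.78 and 2.16, and raw signals of 1203 and 384. RUNX3 had 4 IP-side windows among 25, pooled over different starts, and its highest window had probes of 1.31, 2.68 and 1.36. TNF, an inflammatory cytokine, had 2 IP-side windows, with a highest window of 1.11. IGFBP7, which binds insulin-like growth factors, had 1, with 1.09 from probes of 0.48, 3.06 and -0.28, so that a single probe carried it. It turned negative with normexp (-0.11) and with both channels above background (-0.13). ANXA5, a protein that binds phosphatidylserine, had none, with a highest window of 0.50. In the promoter within 1000 bp upstream, the highest window of TNF was 2.06, above its value inside the gene. For VEGF, RUNX3, IGFBP7 and ANXA5 the highest promoter window was below 2-fold, at 0.14, 0.57, 0.29 and 0.01. The genome build of the array coordinates is not given in the sources used here.

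Of the genes that the study text names beside GATA1 and BCL2L1, MYCN (1.31), CD34 (1.11), IL1A (1.07) and NCAM1 (1.04) had an IP-side window near the start, and DYRK1A (0.96) and EVI1 (0.33, MECOM in RefSeq) did not. In the promoter within 1000 bp upstream, the highest window of EVI1 was 1.02. For MYCN, CD34, IL1A, NCAM1 and DYRK1A the highest promoter window was below 2-fold. With normexp the highest windows of MYCN (0.93), CD34 (0.94), NCAM1 (0.56) and, of the PCR genes, TNF (0.74) and IGFBP7 (-0.11) were below 2-fold. IL1A had 2 IP-side and 3 IgG-side windows. The study list of genes both bound and changed after GATA1 knockdown, chosen on these arrays and hence no independent evidence, was taken as 357 expression probes, several of some genes, and matched by accession or symbol to 318 genes with a window near the start. Of them 184 (57.9%) had an IP-side window there and 79 (24.8%) an IgG-side window, with a median highest window of 1.17. Of the 45 genes that the study tabulated, 42 had a window and 23 (54.8%) an IP-side window, and MAGED1 (2.31) and DIAPH2 (2.18) were among the 3 highest. MAGED1 lay at the 4.56th percentile of intensity and was 0.58 with normexp, below 2-fold.

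The chromosomes differed in both brightness and balance. On chromosome 19, which had the brightest windows (median log2 intensity 10.78), 357 windows stood for the IP and 138 for the IgG, an IP share of 72.1%. On chromosome 18 the IP share was 30.0%, from 114 and 266 windows. On the X chromosome, which had the dimmest windows (9.08) and the widest spread of probes (SD 1.21), there were 13.4% IP-side and 14.1% IgG-side windows. Of the 100 genes with the highest windows, 17.0% were on the X chromosome, beside 3.76% of all genes. The part of brightness in these differences was not tested.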

How the data were processed

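GATA1 IP DNA and IgG DNA of untreated Meg-01 cells were compared on 2 promoter arrays with different probes. The authors deposited scanner output. Per the file headers, intensity values came from Agilent Feature Extraction 9.5.3.1 under a ChIP setting. For the deposited processed intensity, the software subtracted a spatial surface, detrended and dye-normalized the signals, and used surrogates near background. The deposited log10 ratio was Cy5 over Cy3, and the deposited p-value of each probe comes from the error model of the software within 1 array. The series value table held the same deposited log10 ratios. The peak calls of the study, made in commercial software, were not used.

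Here each probe had log2 of the processed IP over IgG intensity, with an array median of 0. Left out were control spots, non-uniformity outliers and probes that neither channel raised well above background. Windows near the start were 3 adjacent probes of the same gene within 1000 bp of the center probe. The windows of the whole arrays had the same limit of distance but no condition on the gene. With 1 hybridization per probe, no p-value was computed, and precision is limited by the number of arrays. The window step was run on simulated data as a check of the code. The simulated noise was narrower than the spread of the real probes and independent between neighbors. The run therefore cannot give the rate of false windows on these arrays. Alternatives used limma 3.58.1 in R 4.3.3 (normexp with an offset of 50, loess with a span of 0.3) and Python 3.11.15 with numpy 2.4.6 and pandas 2.3.3.

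Members, gene lists and the naming rule were chosen with earlier results of these data known. Named genes are the 5 of the PCR check, those of the study text, the 10 highest with at least 2 IP-side windows, the 10 highest and 5 lowest bright ones that were past 2-fold also with normexp and loess, known targets with an IP-side window and the 3 highest of each other list. Other genes were named after their values were seen. Some genes that the rule names are not reported here. Gene names are those of the array. Of the 15911 genes, 15385 matched RefSeq.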

Additional observations from a re-analysis of the deposited data

How the results depend on the processing

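No paired analysis was possible because chIP1 and chIP2 share no probes. Few values moved with the deposited value table, without the filter on dim probes or with both channels above background.

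With normexp the numbers were 4936 IP-side windows, 2850 IgG-side windows and 2484 genes, and the IP share was 63.4%. With loess the IP share was 55.1%, and the difference in IP share between the first and the last 500 bp was 25.7 percentage points in place of 31.3. Single probes gave 21271, 20718 and 9969, with a share of 50.7%. Windows of 5 probes gave 5490, 6117 and 2145, with a share of 47.3% and a difference of 23.02 points. At 1.5-fold the numbers were 28574, 26147 and 9147 (52.2%), and at 3-fold 2551, 2924 and 1349 (46.6%), with a difference of 16.8 points. By the deposited p-values they were 22273, 22052 and 9110. When only the center probe had to be inside the gene, the share was 51.9%. From 0 to 2000 bp there were 7258 IgG-side windows and a share of 54.7%, and from 500 to 3000 bp the share was 44.5% and the median probe turned to -0.020. The IP share of the first 500 bp was above that of the last 500 bp in all of these settings but the changed distance ranges, for which it was not computed.

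The median highest window of the known target list was 0.77 with normexp, 0.78 with loess, 1.27 with single probes, 0.59 with 5 probes, 1.04 with the center probe only and 0.72 from 500 to 3000 bp. From 0 to 2000 bp it was 0.59, below the 0.62 of all genes, so its place above all genes rests on the last 1000 bp. Of 292 values of named genes, 256 kept their side of 2-fold, 32 fell below it and 4 went from above 2-fold to below 0: IGFBP7 with normexp (-0.11) and with both channels above background (-0.13), CASP10 with 5 probes (-0.25) and CCNB3 with normexp (-0.063). Of those never past 2-fold, BCL2L1 (0.00) also turned negative with loess (-0.059) and 5 probes (-0.089), and EVI1 (0.33) with 5 probes (-0.036). The cause was not tested.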
